A study of Homo sapiens with 12 samples.

Results

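Glycolysis turns glucose into pyruvate in the cytosol. Glucose enters through carriers of the SLC2 family and is trapped by hexokinases, and the phosphofructokinases set much of the flux. Pyruvate is then burned in mitochondria or reduced to lactate, which leaves through monocarboxylate transporters, a route that growing tumour cells use heavily. PPARγ is a nuclear receptor that binds DNA with RXR and is best known for genes of fat storage and fatty acid use.

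The question addressed here was where PPARγ peaks lie around 31 genes of glucose uptake, glycolysis and lactate handling, out of 19974 protein-coding genes. The 31 genes were grouped by pathway role, with earlier results of these data known. A peak was assigned to a gene when its summit lay within 50 kb of the gene's span on either side. A peak of a pooled list is called reproducible here when it overlapped, by 1 bp or more, a peak in both single-library lists of its group.

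The cells were MCF10A-NeuT, human mammary epithelial cells of the MCF10A line made tumorigenic by the oncogene NeuT. In both groups used here a retrovirus with a GFP marker had been integrated. It carried wild-type PPARγ in 1 group and, in the other, the mutant K154/155Q, called KQ, in which a pair of adjacent lysines is replaced by glutamine. Each group had 2 chromatin immunoprecipitation (ChIP) libraries and 1 list called on the pooled libraries, and the vector and input libraries were not analysed here. Nothing in the labels says that the 2 libraries of a group came from separate cultures, so a p-value over them measures only the spread between these libraries. A contribution of the cells' own receptor was not told apart, and the sources name both a PPARγ antibody and a Flag antibody for the pull-down.

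Single-library lists held 18143 and 17859 peaks with wild type against 1263 and 1035 with KQ. Read totals are not in the peak lists, but the authors' fold and p together gave whole tag counts at every summit. The median over the peaks was 15 and 8 tags for the wild-type pair of libraries and 17 and 16 for the KQ pair. The median background the caller set at those summits was 1.41 and 0.448 tags for wild type against 2.01 and 1.77 for KQ. The shorter KQ lists therefore came with a higher background per summit than the wild-type lists, and the part of that in the comparisons was not tested.

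The stretches of DNA printed here lie under peaks just before gene starts and are shown to give the sequence at those sites. Stretches at starts of LDHA and SLC16A3, which lie inside those genes' spans, were also read and hold no AGGTCA on either strand. Only the part of a peak inside a start window was read. This was 76 of 327 bases at LDHA, 101 of 147 at SLC16A3 and 237 of 361 at YOD1, where the summit lies outside the stretch. Of the 5 stretches read, 2 hold AGGTCA: HK1, whose peak was not reproducible, and YOD1, which is no member. Start windows of further non-member genes under peaks were not among the 5. They are taken from RefSeq (GRCh38.p14, the assembly of hg38), run 5′ to 3′ on the strand of the named gene and end before its start. Capitals mark the core hexamer AGGTCA of nuclear receptor sites on the strand shown.
HK1, chr10:69269839-69269997, + strand: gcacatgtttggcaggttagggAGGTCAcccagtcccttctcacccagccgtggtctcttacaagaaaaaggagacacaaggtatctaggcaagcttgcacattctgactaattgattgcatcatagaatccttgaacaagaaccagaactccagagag
SLC2A1, chr1:42958893-42959028, - strand: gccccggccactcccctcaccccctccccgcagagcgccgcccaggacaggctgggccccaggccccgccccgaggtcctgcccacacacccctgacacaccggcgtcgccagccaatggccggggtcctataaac
YOD1, inside PFKFB2, chr1:207051222-207051458, - strand: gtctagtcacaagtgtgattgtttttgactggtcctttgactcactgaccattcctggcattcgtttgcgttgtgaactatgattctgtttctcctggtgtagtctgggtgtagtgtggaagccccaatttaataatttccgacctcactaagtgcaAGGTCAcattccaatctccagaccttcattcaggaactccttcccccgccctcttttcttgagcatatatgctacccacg

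Glycolysis genes had wild-type peaks about as often as other genes, and the strong sites were few. Of the 31 genes, 10 (32.3%) had a reproducible wild-type peak, against 37.7% of all other protein-coding genes. Genes of like span, meaning every other gene whose span was within a factor of 1.2 of a member's, had one in 36.2% of cases, which corresponds to 11.2 of 31 genes. The 10 were SLC2A3, SLC2A4, HK1, GPI, PFKL, PFKFB2, PGK1, ENO1, ENO3 and LDHB. With KQ 0 of 31 had a reproducible peak, against 2.68% of all other genes, and the like-span share of 2.70% corresponds to 0.836 of 31 genes. The members' shares are thus near the background in both groups.

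The result in wild type depended on which peaks were counted. Over all pooled wild-type peaks, reproducible or not, 26 of 31 genes (83.9%) had a peak against 67.1% of other genes and 66.7% of genes of like span. In library 1 this was 19 of 31 (61.3%) against 58.9%, and in library 2 it was also 19 of 31 against 60.7%. Within 5 kb of the span, a reproducible peak was found for 7 of 31 genes (22.6%), against 17.4% of the remaining genes and 14.2% of those of like span, so the direction of the difference turned with the window. No test was made over genes, because neighbouring genes share peaks and are not replicates.

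**Figure D1:**
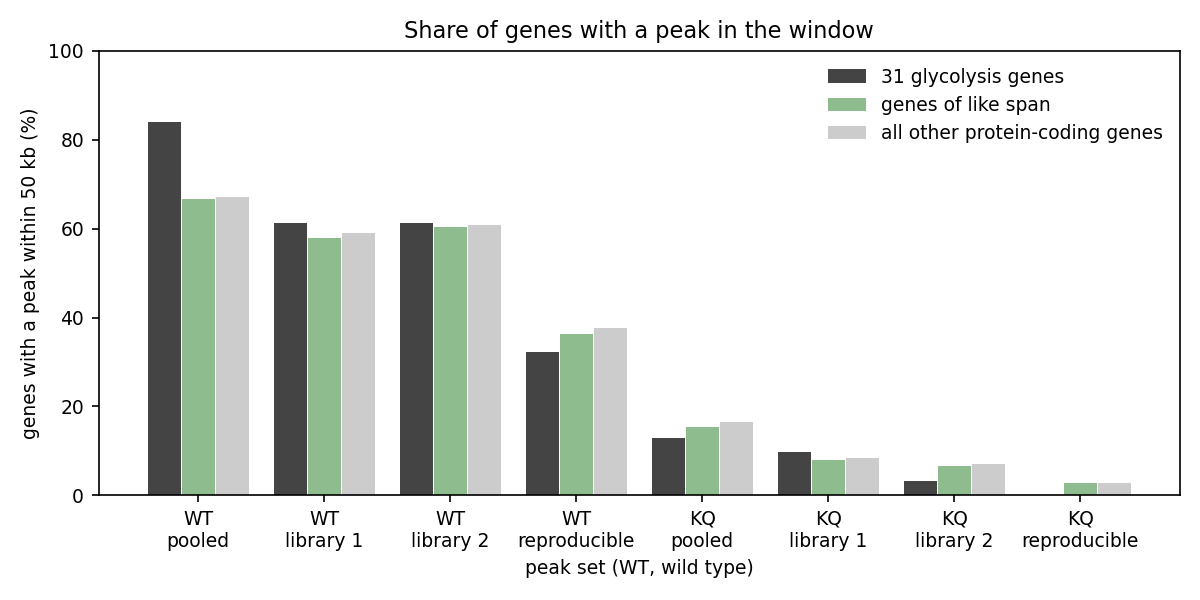
Bars give the percentage of genes with a peak summit within 50 kb of the span, for the 31 glycolysis genes (dark), genes of like span (green) and all other protein-coding genes (grey), in each peak set (WT, wild type). The dark bar stands above the others by the most for all pooled wild-type peaks, at 83.9%, and lies below them for reproducible peaks, at 32.3%.

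In the pooled wild-type list the peaks around glycolysis genes had lower folds than the whole list, which held in library 1 but not in library 2. The pooled wild-type list held 72 peaks in the 31 windows, and no peak was shared between members. Of the 72, 18 (25.0%) were reproducible, against 31.9% of the pooled peaks elsewhere. Their fold enrichment had a median of 5.53, against 6.14 over the whole pooled list. The medians were 5.11 against 6.24 in library 1 and 5.98 against 5.83 in library 2. For the 18 reproducible peaks it was 7.33, and for all 8033 reproducible peaks it was 9.03. Of the 45 peaks of library 1 in these windows, 18 (40.0%) were found again in library 2, against 44.1% for the whole list.

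By pooled fold, the strongest peaks of the group belonged to LDHB. In library 2, peaks near PFKL (15.30) and PFKFB2 (11.08) had higher folds than any LDHB peak. LDHB encodes the lactate dehydrogenase subunit of oxidative tissues that favours the conversion of lactate to pyruvate. LDHB (chr12:21635342-21657842) had 4 pooled wild-type peaks, of which 3 were reproducible. The strongest lay inside the gene, at chr12:21640656-21640915, 17080 bp from the annotated start on the gene's strand. Its fold was 15.99 in library 1, where 43 tags stood over a background of 1.75, and 10.81 in library 2, where 16 tags stood over 0.57. No KQ list held a peak there. The pooled fold of 15.40 ranked 630 among the 8033 reproducible peaks, and it was the highest of any member.

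A second strong LDHB site lay 21.0 kb outside the gene and nearest to GYS2, which encodes the liver form of glycogen synthase, 9.46 kb from that gene's span. At chr12:21614204-21614415 the fold was 10.93 in library 1 and 5.56 in library 2, from 19 and 6 tags. The third LDHB peak, again inside the gene, was weak, with folds of 4.34 and 4.19. KQ library 1 had a peak at another place in the LDHB window, 22.7 kb outside the gene (fold 6.82, 10 tags), which was in no pooled list. Its sister gene LDHA, the subunit that favours lactate formation, had 3 pooled wild-type peaks and none was reproducible.

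ENO3 had the next highest pooled fold inside a member gene and was 1 of the few members whose site was also listed with KQ. ENO3 encodes the muscle form of enolase, the enzyme that makes phosphoenolpyruvate. Its reproducible peak, chr17:4949783-4950071, lay within the gene span (chr17:4948710-4957129) with its summit 616 bp before an annotated ENO3 start. The wild-type folds were 12.03 (library 1, 25 tags over a background of 1.16) and 7.55 (library 2, 15 tags over 1.12). With KQ the fold was 4.54 in library 2 (14 tags over 2.30), and library 1 listed no peak there. The pooled lists gave 11.57 for wild type (38 tags over 2.37) and 3.20 for KQ (22 over 6.18). Both wild-type library folds lay above the KQ library fold. Tags were near equal in wild-type library 2 and KQ library 2, where the KQ background was the higher. The part of the background in the fold difference was not tested.

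ENO1, the enolase of most tissues, also had 1 reproducible wild-type peak that overlapped a pooled KQ peak. It lay inside the gene at chr1:8871172-8871424, with folds of 5.10 and 6.47 in the wild-type libraries. The pooled KQ fold was 3.07, from 21 tags over a background of 6.18, and neither KQ library alone had a peak there. ENO2, the neuronal enolase, had 5 pooled wild-type peaks between 2.34 and 25.8 kb outside the gene, and none was reproducible.

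PFKFB2 was the member with most sites in common between wild type and KQ. The PFKFB enzymes make and break fructose 2,6-bisphosphate, the activator of phosphofructokinase, and PFKFB2 is the form known from heart. The PFKFB2 window (gene at chr1:207034416-207081027) held 3 reproducible wild-type peaks. The strongest, chr1:207109068-207109385, lay 28.2 kb outside PFKFB2 and nearest to the complement regulator gene C4BPA. The wild-type folds were 15.15 (library 1, 33 tags over a background of 1.24) and 11.08 (library 2, 20 tags over 0.90). With KQ the fold was 5.94 in library 1 (16 tags over 1.86), and library 2 listed no peak there. The 1 KQ fold was thus below both wild-type folds, and its background was above both.

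The other pair of reproducible PFKFB2 peaks lay side by side inside the gene, on either side of the start of YOD1, a deubiquitinase gene within the PFKFB2 span. At chr1:207050989-207051172 the wild-type folds were 3.44 (library 1) and 7.25 (library 2). The pooled KQ list had a peak on it with fold 3.79, from 34 tags over a background of 8.24, while neither KQ library alone listed one. At chr1:207051222-207051582, where the YOD1 sequence above was read, the folds were 4.88 and 5.64 and no KQ list had a peak. The AGGTCA in that sequence lies 88 bp before the YOD1 start and 168 bp from the summit. The other PFKFB genes had no reproducible peak within 50 kb. That nearest to PFKFB3 lay 56.6 kb away (fold 7.71), just past the limit of the window, and the farthest one counted was an HK1 peak at 48.1 kb (fold 5.24).

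HK1 had more peaks than any other member, in a long gene. Hexokinase 1 is the form found in most tissues and docks on mitochondria. The HK1 window (gene at chr10:69270000-69401882) held 13 peaks of the pooled wild-type list, of which 4 were reproducible, and 0 KQ peaks of any list. Among genes of like span, 48.5% had a reproducible wild-type peak. The strongest lay at chr10:69268807-69269036, 1089 bp before the first annotated start, with folds of 7.31 and 9.76 from 16 and 11 tags. This site is also within the window of HKDC1, a further hexokinase gene next to HK1.

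The HK1 peak whose sequence is printed above ended 3 bp before the start, with its summit 48 bp before it. It was found in library 1 (fold 6.54) and in the pooled list (5.93, 19 tags over 2.37) but not in library 2, so it was not reproducible. The start-site window held 2 copies of the hexamer: AGGTCA inside the peak, 134 bp before the start, and its complement TGACCT just outside the peak, 171 bp before the start. Over 35116 start-site windows of 300 bases, 13.8% held the hexamer on either strand and 1.38% held 2 or more. Of 55 windows of 27 members, 10 held it, in 7 genes. A direct repeat of the hexamer with 1 base of any kind between the copies was in 0 of the 55 member windows and in 0.0228% of all windows, counted on both strands.

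Inside HK1 the remaining reproducible peaks were more moderate. The site at chr10:69332298-69332610 had folds of 5.11 and 8.97, and that at chr10:69372768-69373005 had 5.09 and 4.83. The fourth lay 48.1 kb beyond the gene and nearest to TSPAN15. HK2, the hexokinase induced in many tumours, had a different picture. Its pooled KQ peak inside the gene (chr2:74875079-74875245, fold 4.72, 25 tags over 4.50) overlapped no wild-type peak of any list and no peak of either KQ library. The 2 pooled wild-type peaks of HK2, with folds of 4.18 and 5.92, lay elsewhere in the gene and were not reproducible. HK3, the hexokinase of white blood cells, had 0 peaks in any list.

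**Figure D2:**
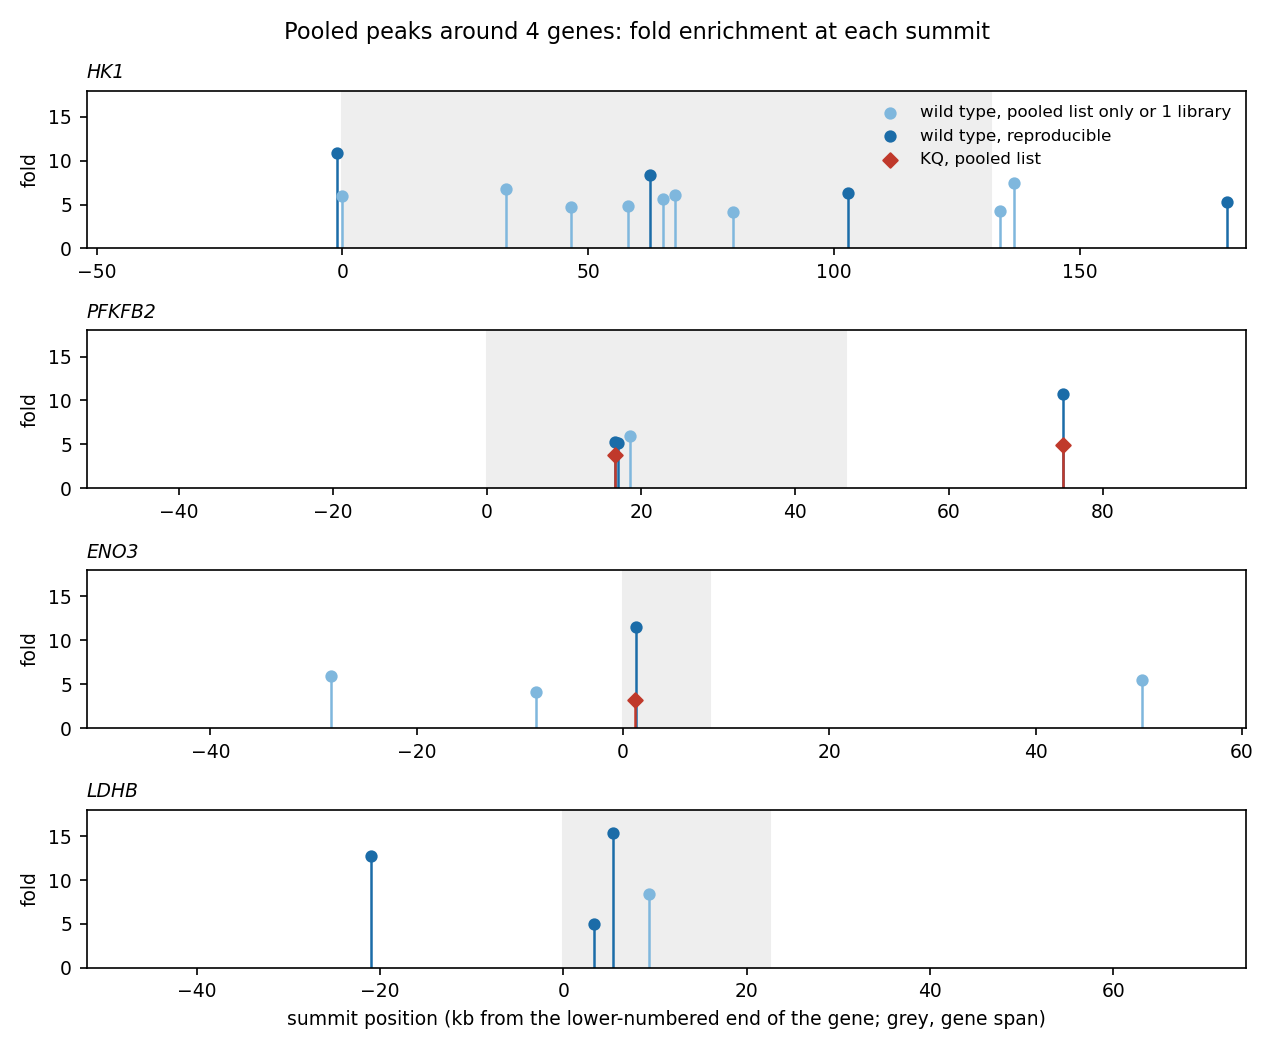
Each panel plots the fold enrichment of pooled peaks (vertical axis) against summit position in kb from the lower-numbered end of the gene, whose span is grey. Dark blue points are reproducible wild-type peaks, light blue points other wild-type peaks and red diamonds pooled KQ peaks. The LDHB and HK1 panels hold no red diamond, and those of ENO3 and PFKFB2 have theirs on a dark blue point at lower fold.

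Among the glucose carriers, the widely expressed SLC2A1 had no reproducible site. Its 1 pooled wild-type peak inside the gene had a fold of 3.70 and was in neither library. Library 2 alone had a peak just before the SLC2A1 start, shown above, with a fold of 5.73 and 9 tags over 0.75. It ended 25 bp before the start, with its summit 83 bp before it. The stretch holds no AGGTCA on either strand. Library 2 also listed a peak of higher fold inside SLC2A1 (6.99, 8 tags over 0.29), which was in no other list. SLC2A3, the neuronal carrier, had 2 reproducible peaks, 19.3 and 30.6 kb outside the gene. The nearer lay close to SLC2A14, its neighbouring copy (folds 4.85 and 7.18). The other had folds of 3.63 and 5.38.

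SLC2A4, the insulin-responsive carrier of fat and muscle, had 1 reproducible wild-type peak 11.0 kb outside the gene and nearest to CLDN7. The folds were 3.57 and 6.22, from 13 and 8 tags, and no KQ list had a peak in the SLC2A4 window. The nearest reproducible KQ peak lay 61.3 kb from SLC2A4, just outside the window, with a fold of 15.04. For the other members, the nearest reproducible KQ peak was at 174 kb (PFKP) or farther.

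In the middle of the pathway GPI, PFKL and PGK1 had 1 reproducible wild-type peak each and no KQ peak. GPI makes fructose 6-phosphate, and its peak inside the gene (chr19:34375712-34375939) had near-equal folds of 7.57 and 7.55. PFKL is the liver subunit of phosphofructokinase. Its peak, chr21:44297777-44298037, lay 2155 bp before the start and inside AIRE, a regulator of immune tolerance, with folds of 5.61 in library 1 and 15.30 in library 2, from 21 and 28 tags. PGK1 makes ATP from 1,3-bisphosphoglycerate, and its peak 9.77 kb outside the gene, nearest to TAF9B, rested on 10 and 4 tags (folds 6.30 and 4.27).

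**Figure D3:**
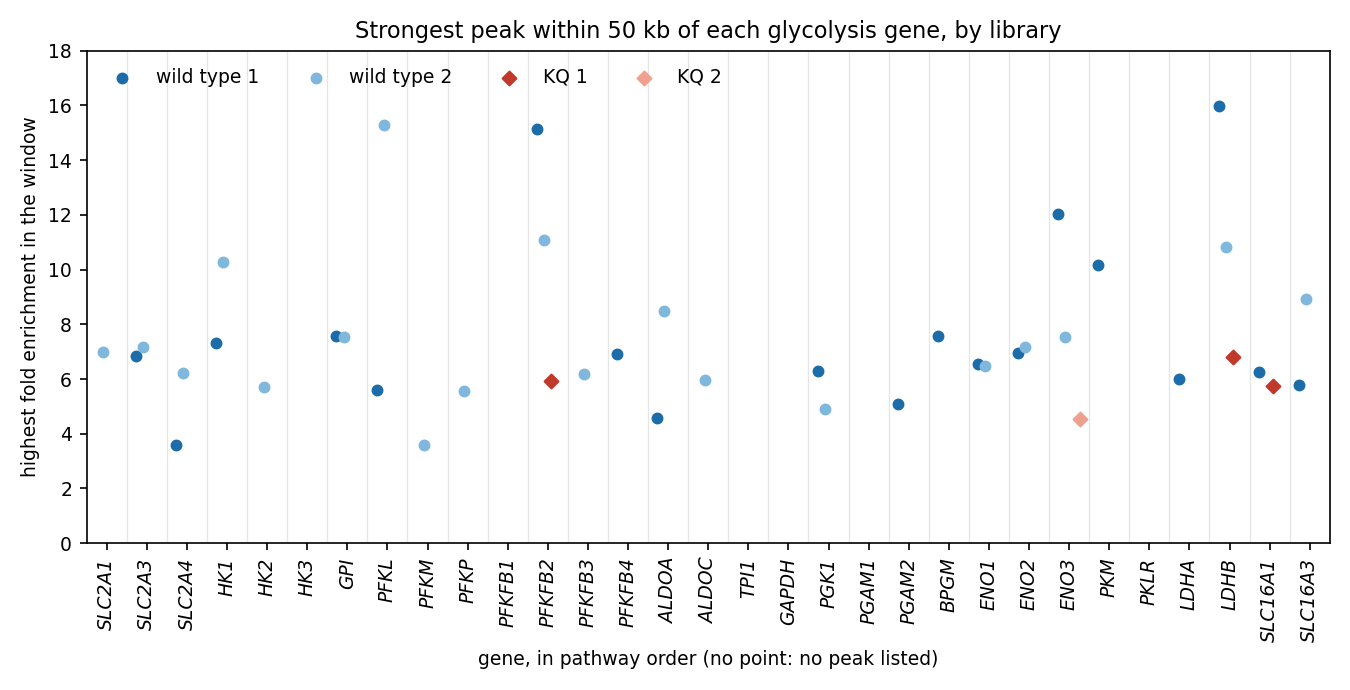
Points give the highest fold enrichment of any peak within 50 kb of each of the 31 genes in each library: wild type 1 (dark blue), wild type 2 (light blue), KQ 1 (red) and KQ 2 (pale red), with no point where no peak is listed. The highest wild-type values are 15.99 at LDHB, 15.30 at PFKL and 15.15 at PFKFB2, and the 4 KQ points lie between 4.54 and 6.82.

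A pooled wild-type peak lay near 83.9% of members against 67.1% of other genes, and a reproducible one near 32.3% against 37.7%. Having only non-reproducible peaks was thus more common among members than among other genes. Members with pooled wild-type peaks but no reproducible one numbered 16, with 29 peaks between fold 2.91 and 7.56. Of these 29 peaks, 18 were in 1 library and 11 in neither. The highest were at PKM (7.56), PFKFB3 (7.28) and LDHA (6.23). PKM encodes a pyruvate kinase. The strongest PKM peak lay 6.04 kb outside the gene and nearest to PARP6, present in library 1 (fold 10.18, 21 tags) and absent from library 2. The others were SLC2A1, HK2, PFKM, PFKP, PFKFB4, ALDOA, ALDOC, PGAM2, BPGM, ENO2, PKLR, SLC16A1 and SLC16A3. Neither pyruvate kinase gene and neither monocarboxylate transporter gene had a reproducible peak.

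The lactate exporters showed how sites differed between the wild-type libraries. SLC16A3, the exporter of glycolytic cells, had a peak at an annotated start in library 1 only (fold 5.77, 11 tags, summit 194 bp before it). Library 2 had a peak with its summit 67 bp before the 5′ boundary of the gene span (fold 8.93, 11 tags). Neither of these was in the pooled list. SLC16A1, the most widespread monocarboxylate transporter, had a peak inside the gene in wild-type library 1 (fold 6.24, 13 tags) and another in KQ library 1 (fold 5.73, 12 tags). The only pooled wild-type peak of SLC16A1 lay 14 bp outside the span (fold 3.37) and was in neither wild-type library.

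The remaining 5 members had no pooled wild-type peak: HK3, PFKFB1, TPI1, GAPDH and PGAM1. These had no peak in any other list either. Lacking a pooled wild-type peak was less common among members than elsewhere, since 83.9% of members had one against 67.1% of other genes. TPI1, GAPDH and PGAM1 are the housekeeping enzymes of the steps between aldolase and enolase, and PFKFB1 is the liver form of its family. The nearest reproducible wild-type peaks lay 148 kb from TPI1, 151 kb from GAPDH and 251 kb from PGAM1. For HK3 the distance was 95.4 kb and for PFKFB1 1651 kb.

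Where the wild-type sites lay relative to gene starts was described without a test. Of the 18 reproducible peaks, 9 had their summit inside a member gene and 9 outside, and 11 had a member as their nearest gene. Summits within 1 kb of an annotated start of any protein-coding gene made up 4 of 18 (22.2%). The share was 7.69% among the 4186 reproducible peaks in windows of like-span genes. The 4 include the peaks on either side of the start of YOD1, which is no member. Among members with listed starts, only ENO3 had a reproducible summit within 1 kb of its own start. Of the 72 pooled peaks, 17 (23.6%) had a summit within 1 kb of a start, against 10.6% of the 13006 pooled peaks in windows of like-span genes. Of the 72, 9 touched the start-site window of a protein-coding gene, and in 2 cases, HK1 and LDHA, that gene was a member. The annotation used gives spans and starts only, so exonic and intronic summits were not separated.

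KQ peaks near these genes were few, as they were across the genome. With wild type the 31 windows held 45 peaks in library 1 and 41 in library 2, a mean of 43.0 ± 2.83 (SD, n = 2). With KQ they held 3 and 1, a mean of 2.00 ± 1.41 (SD, n = 2). The wild-type mean was 21.5 times the KQ mean, which exceeded the spread within the groups, but the exact permutation test (two-sided, n = 2 per group) gave p = 0.33, the smallest it can give. Leaving out KQ library 1 made the ratio 43.0 and leaving out KQ library 2 made it 14.3. Over the whole lists the ratio was 15.7.

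As a share of each list, the window peaks were 0.248% and 0.230% with wild type and 0.238% and 0.0966% with KQ (exact permutation test, two-sided, n = 2 per group, p = 0.67), so the groups overlapped. With every library list shortened to its 1035 strongest peaks by q, wild type had 2 and 2 peaks in the windows and KQ had 3 and 1. At equal list length the mean count around glycolysis genes was thus 2 in both groups.

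Sites kept with KQ were about as frequent as elsewhere. Of the 18 reproducible wild-type peaks in the windows, 4 (22.2%) overlapped a pooled KQ peak, against 20.1% of the reproducible wild-type peaks elsewhere. They were the ENO1 and ENO3 sites, the C4BPA site of PFKFB2 and the first YOD1 site. The strongest member site, in LDHB, was not among them. In the other direction, 4 of the 5 pooled KQ peaks in the windows overlapped a pooled wild-type peak, against 80.4% elsewhere, and the exception was the HK2 peak. These 5 lay near HK2, PFKFB2, ENO1 and ENO3, 4 of 31 members against 16.4% of other genes.

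**Figure D4:**
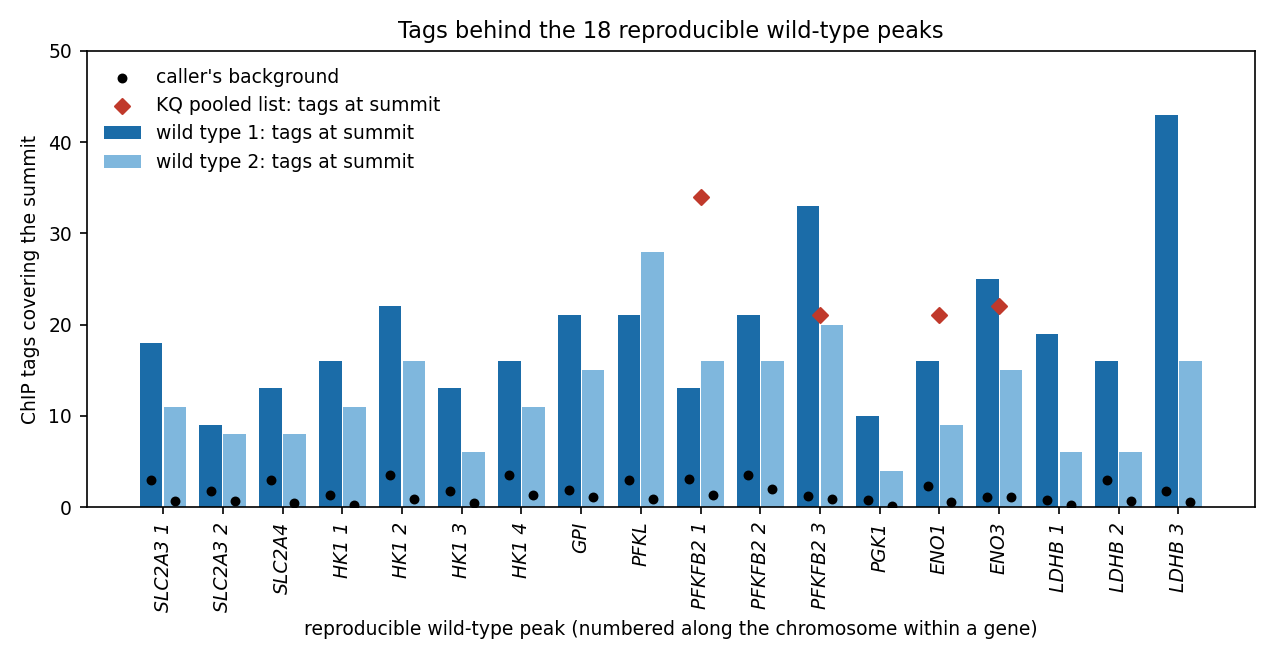
Bars give the ChIP tags covering the summit of each of the 18 reproducible wild-type peaks in wild-type library 1 (dark blue) and library 2 (light blue), black dots the caller's background there, and red diamonds the tags in the pooled KQ list, which joins 2 libraries. Bars run from 4 tags at PGK1 to 43 at the strongest LDHB site, and diamonds stand at 4 sites, between 21 and 34 tags. The dots are for the wild-type libraries only, and the KQ background at the diamonds, not drawn, was between 3.43 and 8.24.

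Genes of neighbouring pathways were counted in the same way with 7 lists of 77 genes in all. A reproducible wild-type peak lay near 31 of the 77 (40.3%) and a reproducible KQ peak near 2 (2.60%), both close to the shares of all other genes. Pyruvate entry and pyruvate dehydrogenase had 6 of 8 genes with wild type and 0 with KQ, where genes of like span would give 34.6%. The highest folds of this list were 15.79 near DLD, 37.7 kb outside the gene, and 15.38 near PDHX. Of its 6 genes, only MPC1 was the gene nearest to its own strongest reproducible peak. DLD and PDHX encode parts of the complex that turns pyruvate into acetyl-CoA.

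The shares of the other 6 lists lay between 18.2% and 54.5%. Glycogen metabolism had 6 of 11 genes with wild type (54.5%, against 40.9% of genes of like span), led by GYS2, whose strongest site is the one inside LDHB, and UGP2 (12.74), which makes UDP-glucose. All 3 reproducible GYS2 peaks are those also counted for LDHB. UGP2 was also 1 of the 2 genes with a reproducible KQ peak (fold 6.68, on the wild-type site). The other was PC, the pyruvate carboxylase gene (KQ fold 5.02), in the gluconeogenesis list. That list had 3 of 9 with wild type (33.3%, against 34.3% of genes of like span), led by G6PC1 (13.39), the glucose-6-phosphatase, and PC (11.62).

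The pentose phosphate list had 4 of 9 with wild type (44.4% against 36.1%), among them H6PD (11.42), whose product works in the endoplasmic reticulum. Alternative glycolytic isozymes and regulators had 5 of 16 (31.2% against 34.7%), among them TIGAR (15.09), a fructose bisphosphatase. HKDC1, in the same list, was counted only through the HK1 peak at chr10:69268807-69269036. The TIGAR peak lay 35.7 kb outside the gene and nearest to FGF23. The regulators of glucose use had 5 of 13 (38.5% against 38.3%), led by PRKAA1 (21.17), a catalytic subunit of AMP-activated kinase, whose peak lay 41.9 kb outside the gene, and EPAS1 (10.75). The further SLC2 sugar transporters had 2 of 11 (18.2% against 40.7%), the farthest below genes of like span of the 7 lists. They were SLC2A12 (10.08) and SLC2A14 (6.97). The SLC2A12 peak lay 49.5 kb outside that gene and nearest to TBPL1. The SLC2A14 peak is the one also counted for SLC2A3. With KQ these 4 lists had 0 genes with a reproducible peak. These are counts without a test.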

How the data were processed

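PPARγ ChIP-seq peaks of 4 of the 12 libraries were used, with 2 libraries per group placed by their titles. Bowtie2 (version 2), the hg38 build and MACS2 are named in the submitters' processing notes. The caller's settings were not given in the sources used here. Deposited lists give for each peak a fold enrichment (a ratio over the caller's background), the −log10 of its p-value and q-value, and the summit. Folds are those of the authors.

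Peaks on chromosomes 1 to 22 and X were assigned to RefSeq gene spans (GRCh38.p14) with Python 3.11.15 and pandas 2.3.3. Tags and background at a summit were recovered by solving the fold (with a pseudocount of 1) and Poisson p for whole tags, which 100% of peaks allowed within 0.001 of −log10 p. These steps were tested on simulated data. Tag counts cover counting error only. Starts came from a RefSeq table with 27 of the 31 members. Library counts were compared by exact permutation tests, which with 2 against 2 cannot go below 0.33. Genes were described by counts beside all other genes.

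Genes were named by rule: members with a reproducible peak or a pooled KQ peak in full, the 3 highest of those with other wild-type peaks, at most 2 genes for each of the other 7 lists (some are not reported here), and genes nearest to a described peak. The single-library peaks at SLC2A1, SLC16A1 and SLC16A3 were chosen after their values were seen. Members, lists and tests were chosen with earlier results of these data known. Alternatives changed the window, gene assignment, peak set, q threshold, overlap, replicates, list length and span factor.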

Additional observations from a re-analysis of the deposited data

How the results depend on the processing

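The count of 10 members with a reproducible wild-type peak stayed within 1.5 times under the other window, nearest-gene, q and overlap settings. It was 26 with all pooled peaks (83.9%, against 67.1% of other genes). With wild-type peaks cut to the KQ number it was 0, against 3.25% of other genes and 3.28% of genes of like span. Without wild-type library 2 it was 17 (54.8%, against 54.8% of other genes). Without library 1 it was 18 (58.1% against 48.6%). With 1 library left out, a peak had to recur in fewer lists. The members' share minus that of like-span genes was -3.97 points and 8.35 in the 5 kb window, 2.65 by nearest gene, 17.2 over every pooled peak, -1.69 with 50% of the peak covered, and between 1.16 and 10.5 without 1 library. The cause of these shifts was not tested. The KQ count of 0 was 4 with all pooled peaks (12.9%, against 16.4% of other genes). It was 1 (3.23%) without KQ library 1, against 5.79% of other genes. Without KQ library 2 it was also 1 (3.23%), against 7.01%. The ratio of 21.5 between wild-type and KQ peak counts in the windows was 1.00 at equal list length (exact permutation p = 1.00) and between 14.3 and 43.0 without 1 library. With the replicate number as a block it was 24.8 (exact sign-flip test, p = 0.50, the smallest possible), and deviations of same-numbered libraries over genes correlated at -0.01, so the numbers were not taken to pair the samples. Summits with few tags limit the weak sites.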
